A study of Mus musculus with 6 samples.

Results

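A set of 7 microRNAs that mark blood cells was followed across 6 arrays of pooled mouse oocytes: mmu-miR-223, mmu-miR-142-3p, mmu-miR-142-5p, mmu-miR-150, mmu-miR-144, mmu-miR-451 and mmu-miR-486 (the prefix mmu, for mouse, is dropped from here on). They were chosen by name, for the blood lineage in which each is known, but after earlier results of these data had been seen. They made up 7 of the 577 microRNA entries on each array. Only miR-223 was called detected on any array. It was detected on all 4 arrays of large oocytes and on neither array of small oocytes, and the other 6 members stayed at background throughout.

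These microRNAs are textbook markers of haematopoiesis. miR-223 is abundant in neutrophils and other myeloid cells, where it restrains granulocyte production and activation. The miR-142 hairpin yields 2 arms used in nearly all blood cell lineages, and miR-150 accumulates in mature B and T lymphocytes, where it represses Myb. miR-144 and miR-451 come from 1 primary transcript that GATA1 switches on during red cell development; miR-451 is cut by Argonaute 2 without Dicer. miR-486, from an intron of the Ank1 gene, is abundant in red cells and in muscle. In mouse oocytes microRNAs are present, but their repression of targets is known to be weak.

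The arrays held total RNA of C57BL/6 oocytes labelled with cyanine 3, in 3 groups of 2 arrays. Aged large oocytes, 60 to 80 µm in diameter, were taken at 41 to 43 weeks of age by most labels, and the sample descriptions give an age that is 1 week older. Young large oocytes had the same diameter and were taken at 6 to 8 weeks. Young small oocytes were 20 to 50 µm in diameter, of that same younger age, and were labelled as non-growing and as belonging to primordial follicles. Oocytes were pooled by diameter. The 2 arrays of a group are duplicates by the series text. Nothing says that they hold RNA of separate pools, so the p-values cover only array-to-array spread, which may be technical. How the oocytes were freed of surrounding cells is not given in the sources used here.

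RefSeq held the mature sequence of 5 of the 7 members, and these are shown because they are the molecules that the array's entries stand for. The array's older names correspond to miR-223-3p, miR-142a-3p, miR-142a-5p, miR-144-3p and miR-451a; miR-150-3p, the opposite arm that the array lists as miR-150*, is added because it was detected. Capitals mark the seed, bases 2 to 8 from the 5′ end, through which a microRNA recognises its targets.
miR-223: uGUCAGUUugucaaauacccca
miR-142-3p: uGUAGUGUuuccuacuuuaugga
miR-142-5p: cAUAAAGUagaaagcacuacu
miR-144: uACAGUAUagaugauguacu
miR-451: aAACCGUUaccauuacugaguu
miR-150*: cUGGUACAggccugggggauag
The 5 matched members have 5 distinct seeds, and none of these seeds occurs in another of the 1674 distinct mature mouse sequences of the table. The longest run of bases that miR-223 shares with any other mature sequence is 9 bases, with miR-3112-3p. miR-142-5p shares a run of 13 bases with miR-3964. In GRCm38.p6, miR-223 lies on the plus strand at chrX:96242884-96242905, miR-142-3p at chr11:87756903-87756925 and miR-142-5p at chr11:87756867-87756887. miR-144 at chr11:78073047-78073066 and miR-451 at chr11:78073186-78073207 are on the plus strand as well, with 99 bases between their hairpins, and miR-150* is at chr7:45121798-45121819, also on that strand. G and C make up 40.9% of miR-223, between 30.0% and 36.4% of the other 4 matched members, and 63.6% of miR-150*.

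Each array gave, per microRNA, a raw total signal with its background subtracted, an error of that signal and a call of detected or not. The arrays called 108 of 577 entries (18.7%) detected at least once and 56 (9.71%) on all 6 arrays. Detected entries numbered 84 ± 7.07 in aged large, 99.5 ± 3.54 in young large and 58.5 ± 2.12 in young small ones (SD, n = 2 arrays each). None of the 7 negative control entries was called detected on any array. The factor that put the arrays on 1 scale was 0.954 and 1.06 for aged large, 1.94 and 1.48 for young large, and 0.582 and 0.589 for young small oocytes. The groups thus had the same order in brightness and in the number of detected entries, and the part of this gap in the detection calls below was not tested. As a check of the tissue label, all 6 listed entries that mark oocytes and early embryos were detected on at least 1 array. They come from the cluster of miR-290 and miR-295. Of them, 3 were detected on all 6 arrays, while miR-290-5p, miR-293 and miR-295 were detected on no small oocyte array. Of 7 entries for granulosa cells, 2 (miR-21 and miR-212) were detected on at least 1 array, and 1, miR-21, on all 6. Detection on any array was seen for 0 of 4 entries for stroma and smooth muscle and 0 of 2 for endothelium and platelets.

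The lymphoid, pan-leukocyte and red cell members gave no signal that the arrays called detected. Over the 6 members other than miR-223 and the 6 arrays, 0 of 36 readings were called detected, and 0 of 36 exceeded 3 times their own error. Raw signals of these readings ran from -1.70 to 2.24, and 18 of the 36 were at or below 0. The errors of the same readings were between 1.39 and 1.69, and at most 1.49 errors separated a reading from 0. Since 81.3% of all entries were undetected on every array, an undetected member is the usual outcome on this platform.

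Both arms of the pan-leukocyte miR-142 hairpin were undetected, and their readings sat on opposite sides of 0. miR-142-3p had raw signals of 1.98 and 2.19 in aged large, 2.24 and 1.66 in young large, and 0.545 and 1.14 in young small oocytes. All 6 readings were above 0 and lay between the 78.1 and 94.5 percentile of the undetected entries of their array, yet within 1.49 errors of 0. miR-142-5p had raw signals of -0.417 and -0.695 in aged large, -0.624 and -1.47 in young large, and -0.679 and -1.43 in young small oocytes. It was below 0 on all 6 arrays, and at its lowest the ratio of signal to error was -1.03, so neither arm has a level to compare between groups.

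miR-150, the lymphocyte microRNA, was also below 0 on all 6 arrays. It read -1.70 and -0.826 in aged large, -1.03 and -0.380 in young large, and -0.687 and -0.446 in young small oocytes (raw signal), and the 3 groups overlapped.

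The red cell members were likewise undetected. miR-144 had raw signals between -0.978 and 0.135 and was at or below 0 on 5 of 6 arrays. miR-451, its neighbour in the genome, had -0.857 and 0.0178 in aged large, 1.51 and 1.07 in young large, and 1.01 and 1.21 in young small oocytes. Both aged readings of miR-451 were lower than the other 4, but every reading was within 0.923 errors of 0, so no level can be compared. miR-486 had raw signals between 0.367 and 1.97, above 0 on 6 of 6 arrays and at most 1.20 errors from it.

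**Figure D1:**
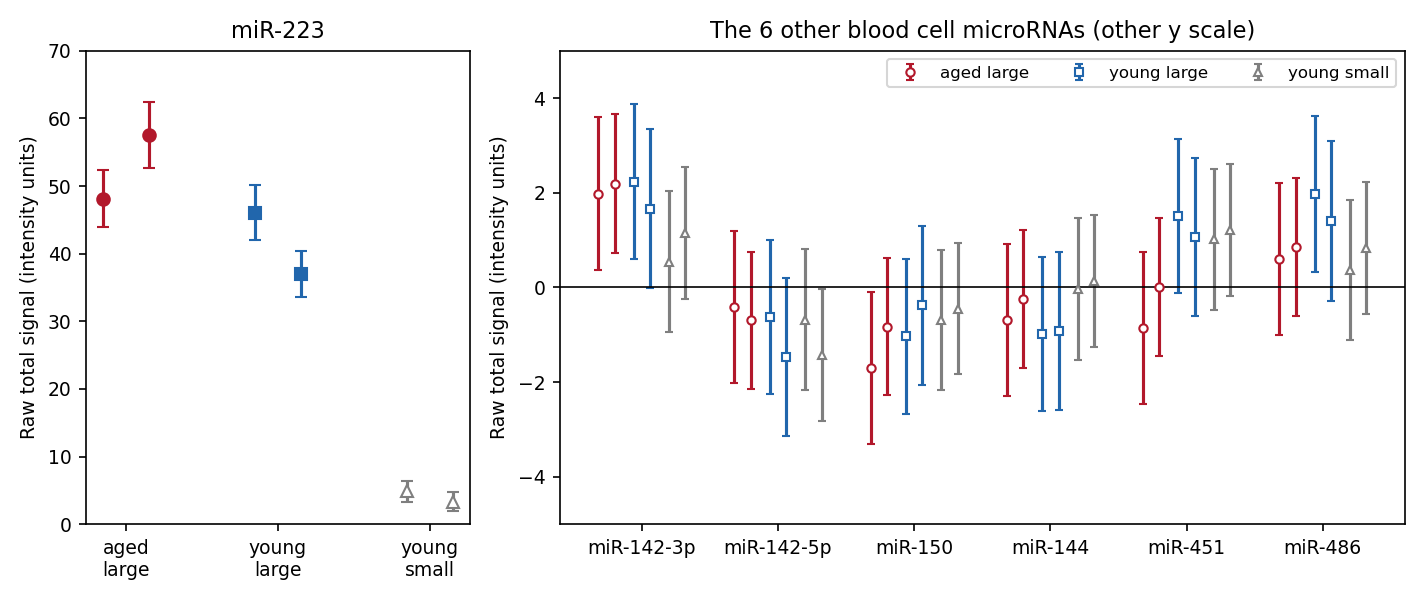
Raw total signal (intensity units) of the 7 blood cell microRNAs, 1 point per array, with the deposited error of each signal as bars; filled points were called detected and open points were not. miR-223 (left) lies between 37.0 and 57.6 on the 4 large oocyte arrays and at 4.83 and 3.31 on the small ones, while the other 6 members (right, on another y scale) scatter around 0 between -1.70 and 2.24.

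miR-223 was the exception. Its raw signal was 48.1 and 57.6 in aged large oocytes, 46.0 and 37.0 in young large oocytes, and 4.83 and 3.31 in young small oocytes. Both small oocyte readings lay far below the 4 large ones, and the nearest aged and young large readings lay closer together than their errors of 4.19 and 4.04. The signal was between 10.9 and 11.7 times its error on the large oocyte arrays, against 3.16 and 2.34 times on the small oocyte arrays. At least 90% of the spots for miR-223 were kept as inliers on each array. Detection on all 4 large oocyte arrays and on no small one was seen in 13 of 577 entries (2.25%). With 3 errors as the rule in place of the deposited call, 1 young small array also counted miR-223 as detected. Those 2 small oocyte readings still ranked at the 99.4 and 98.1 percentile of the undetected entries of their arrays.

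Each array was then scaled to the 56 microRNAs that every array detected, and the scaled signal of miR-223 was 50.5 and 54.3 in aged large, 23.7 and 25.0 in young large, and 8.30 and 5.61 in young small oocytes. The groups did not overlap. The scaled level was 52.4 ± 2.72 in aged large, 24.3 ± 0.884 in young large and 6.96 ± 1.90 in young small ones (SD, n = 2 each). Duplicates of miR-223 differed by 0.11 log2 units in aged large, 0.07 in young large and 0.56 in young small oocytes. Among entries detected on both arrays of a group, the median such difference was 0.12, 0.10 and 0.07 log2 units in the same order of groups. The large oocyte duplicates of miR-223 thus scattered like other microRNAs, and the 2 undetected small oocyte readings differed more. In pooled RNA, fewer cells that carry a microRNA and less of it per cell cannot be told apart.

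The first comparison set aged large against young large oocytes, the contrast for which the series text names ageing. miR-223 rose 2.15-fold in aged large oocytes on the scaled signal, a log2 change of 1.11 ± 0.17 (SE; 95% confidence interval 0.60 to 1.61; limma, adjusted p = 0.0233). Of 97 microRNAs tested, 29 passed (29.9%), 14 of them higher in aged oocytes (14.4%). Groups that do not overlap were common, at 60.8% of those tested, so that feature of miR-223 says little. A called rise of at least 2-fold was rarer, at 5 of 97 (5.15%), and miR-223 ranked 5 of 97 by the size of its rise. With 2 arrays against 2, an exact two-sided permutation test of a single microRNA cannot give a p under 0.333.

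How much of this rise is seen depends on the scaling. The raw signal averaged 52.9 ± 6.67 in aged large and 41.5 ± 6.39 in young large oocytes (SD, n = 2 each), 1.28-fold by the means of log2 signals, a log2 difference of 0.35. The scaling factors of the same arrays differed by -0.76 on the log2 scale, aged large minus young large. Most microRNAs were dimmer on the aged arrays, as the median raw log2 difference was -0.70 over 95 tested microRNAs with raw signals above 0. Ranked on raw signals with no floor, miR-223 was 6 of those 95. The log2 change was positive under all 7 scalings, between 0.35 and 1.16, and passed the threshold under 3 of them. The call was lost when any 1 of the 4 large oocyte arrays was left out, with adjusted p = 0.109 without young large array 1, 0.0971 without young large array 2, 0.0897 without aged large array 1 and 0.0943 without aged large array 2 (limma), while the log2 change itself stayed between 1.05 and 1.16.

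No other blood cell member was detected in either group, so none has a level to set beside it. The summed raw signal of the 6 other members was -1.07 and 1.29 in aged large oocytes, against 3.08 and 1.37 in young large oocytes. Both arms of miR-142, also made in myeloid cells, were undetected. On raw signals miR-142-3p had 2.09 ± 0.148 in aged large and 1.95 ± 0.404 in young large oocytes, and miR-142-5p had -0.556 ± 0.197 in aged large and -1.05 ± 0.599 in young large oocytes (SD, n = 2 each). On scaled signals miR-142-3p had means of 2.08 in aged large and 1.14 in young large oocytes (n = 2 each), under the floor in both groups and with no test. The raw errors of these undetected readings were between 1.47 and 1.68, so the scaled gap is no measured rise.

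**Figure D2:**
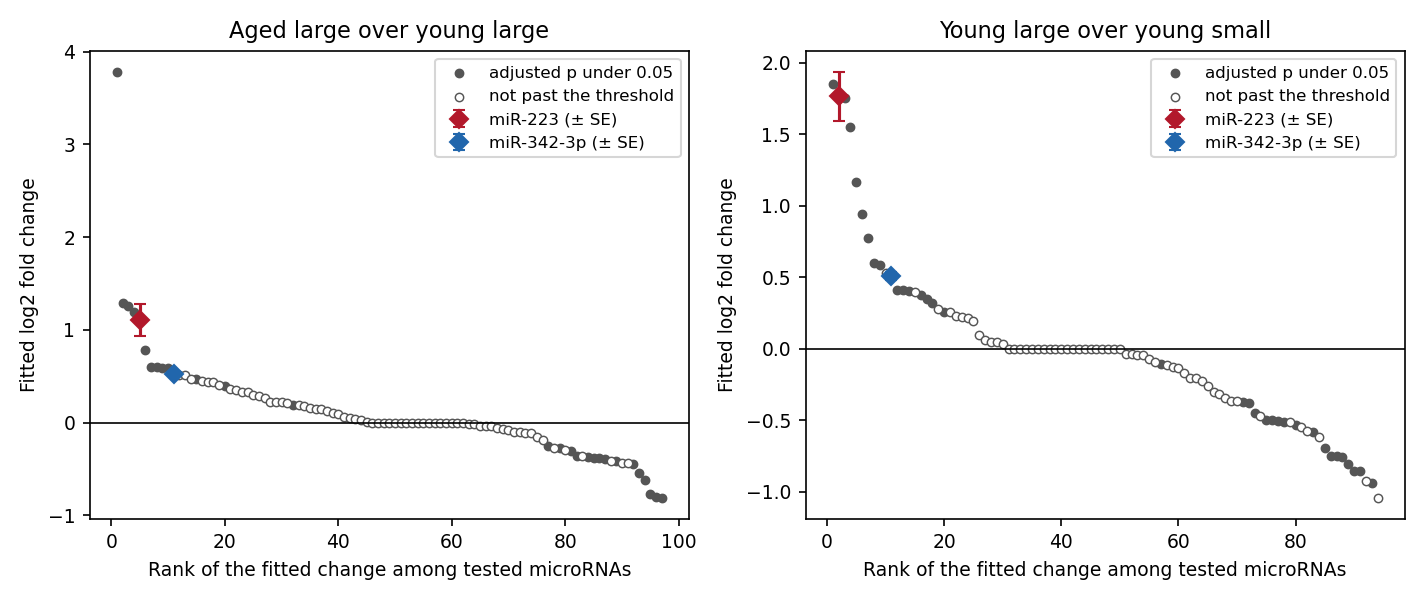
Fitted log2 fold change (y) of every tested microRNA, ranked from the highest to the lowest (x), for aged large over young large (left) and young large over young small oocytes (right); filled points passed an adjusted p of 0.05, and bars on the 2 coloured diamonds are standard errors. miR-223 is 5 of 97 on the left and 2 of 94 on the right, and miR-342-3p, from the list of other leukocyte-linked microRNAs, lies lower in both.

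Growth, the other question of the series text, was addressed by young large against young small oocytes. By the fit miR-223 was 3.40-fold higher in young large oocytes, a log2 change of 1.76 ± 0.17 (SE). The 95% confidence interval ran from 1.26 to 2.27 (limma, adjusted p = 0.00563). miR-223 entered this test only through the large oocyte arrays that detected it. Without that filter, over all 577 entries, it missed the threshold (limma, adjusted p = 0.0677). No small oocyte array detected miR-223, so the fold rests on undetected readings and is not a lower bound. Setting the large oocyte mean against each small array's lowest detected signal, or the reading itself where higher, gave the same 3.40-fold. This is no second estimate, as both use scaled values of 8.30 for small array 1 and 6.17 for small array 2. The floor is itself the lowest detected scaled signal of small array 2. Undetected entries reached raw signals of 5.82 and 5.90 on the small arrays, above their lowest detected signals of 3.36 and 3.64. The 2 small readings taken as they stand, 1 of them under the floor of 6.17 set on scaled signals, give 3.56-fold. On raw signals the levels were 41.5 ± 6.39 in young large and 4.07 ± 1.08 in young small ones (SD, n = 2 each), 10.3-fold apart by the means of log2 signals, of which the scaling factors account for 1.53 log2 units. Of 94 microRNAs tested, 35 passed (37.2%), 17 of them higher in large oocytes (18.1%), and 5 (5.32%) were called and at least 2-fold higher. Over entries above the floor on a compared array, 39 of 74 passed, 19 of them higher in large oocytes. By the size of its rise miR-223 ranked 2 of 94, after miR-295 of the early-embryo cluster, and 4 of 91 on raw signals with no floor. Non-overlapping groups made up 64.9% of those tested.

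This difference kept its call under more settings than the ageing one. It passed under all 7 scalings, the reported one among them, with log2 changes between 1.76 and 3.30. With each of the 6 arrays left out in turn, the log2 change lay between 1.53 and 2.01. Leaving out either aged large array gave the same growth fit as using only the 4 arrays compared. All these settings kept the filter on detection, which miR-223 met through the young large arrays alone. Over all 23 alternatives the adjusted p of limma ran from 0.000158 to 0.0677, the highest being that without the filter on dim entries. The summed raw signal of the 6 other blood cell members overlapped between the groups, at 3.08 and 1.37 in young large and 0.530 and 1.44 in young small oocytes.

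**Figure D3:**
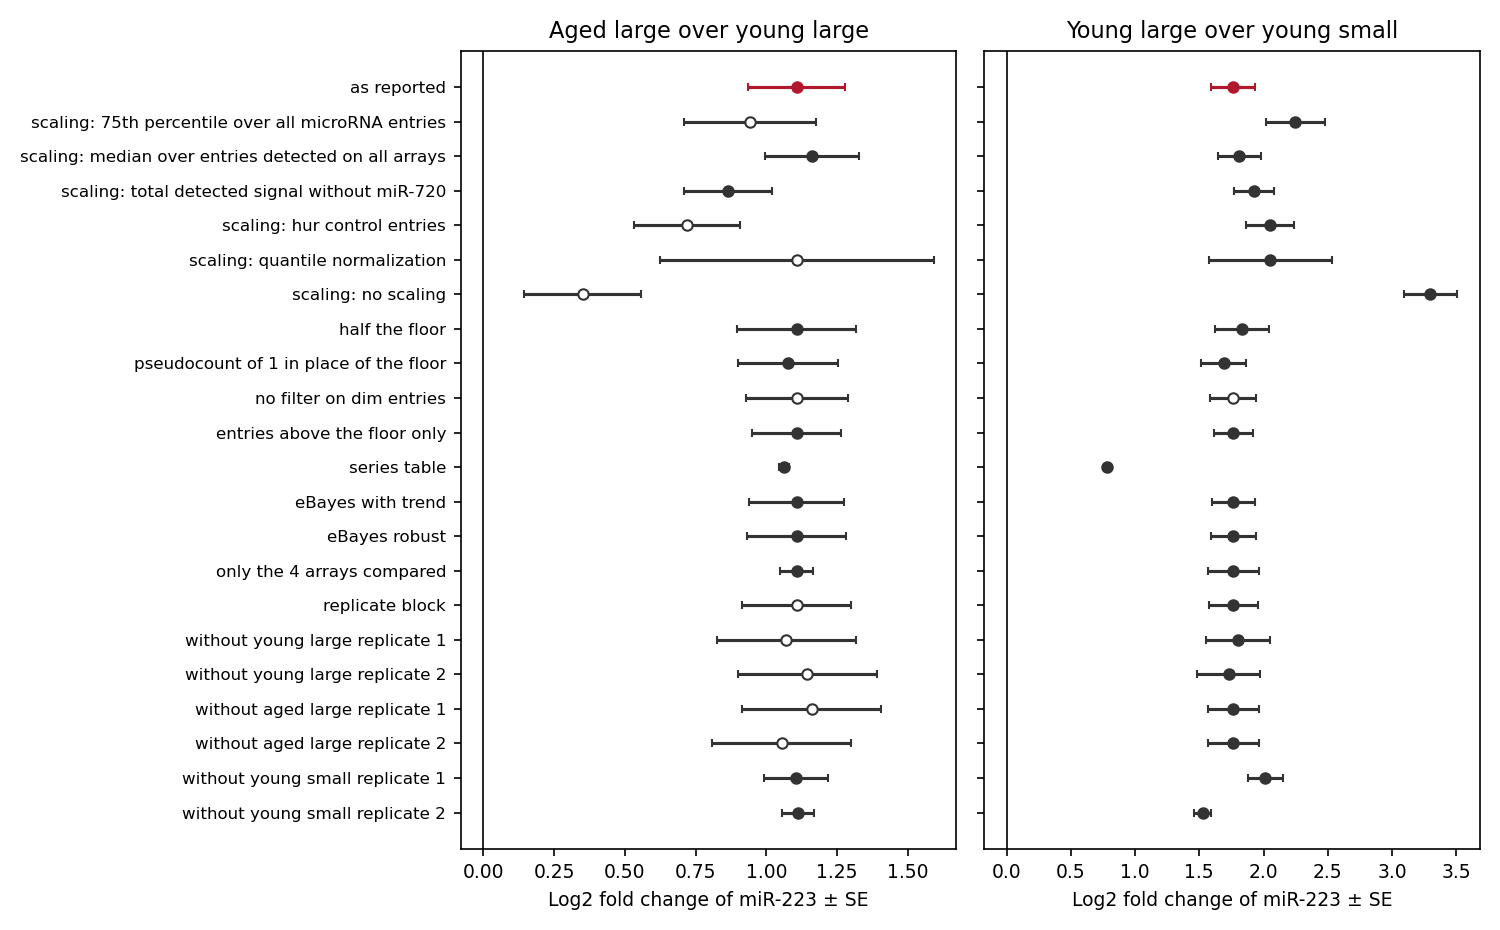
Log2 fold change of miR-223 with its standard error (x) under each processing setting (y), for aged large over young large (left) and young large over young small oocytes (right); filled points passed an adjusted p of 0.05 and open points did not. The x axes differ: every value is above 0, the ageing values lie between 0.35 and 1.16, and the growth values lie between 0.78 and 3.30.

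The order of miR-223 on the scaled signal was therefore aged large, young large, young small. The step between young large and young small oocytes passed the threshold under all 7 scalings. Each of these kept the filter on detection, which miR-223 met through the young large arrays alone. Without that filter the step missed the threshold (limma, adjusted p = 0.0677). The step between aged and young large oocytes passed it under 3 of 7, and on raw signals the 2 nearest readings of these groups differed by less than their errors.

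miR-150*, the opposite arm of the lymphocyte microRNA's hairpin, was detected where miR-150 was not. Its raw signal was 8.15 and 9.05 in aged large, 10.5 and 9.02 in young large, and 2.56 and 1.85 in young small oocytes. It was called detected on the 4 large oocyte arrays and on neither small one, like miR-223, although its signal was smaller. On the scaled signal it was 8.54 ± 0.00519 in aged large, 5.74 ± 0.481 in young large and 3.77 ± 0.894 in young small ones (SD, n = 2 each).

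No firm direction can be given for miR-150*. Both young large readings and both small ones lay under the floor of 6.17. Aged large against young large oocytes gave a fitted log2 difference of 0.47 ± 0.003 (SE; limma, adjusted p = 6.42e-06), with a standard error that the floor makes too small. With that floor divided by 2 the difference was 0.58 ± 0.19 (SE; limma, adjusted p = 0.0890), and on unscaled signals it was -0.18, with groups that overlapped. Over all 22 alternatives its adjusted p ran from 1.72e-07 to 0.260. Young large against young small oocytes gave no fold, as all 4 readings were under the floor.

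A list of other microRNAs linked to leukocytes gave calls at about the rate of all tested microRNAs. Of 12 listed, 11 were on the array, 5 were detected on at least 1 array, and those 5 were tested in both comparisons. In aged against young large oocytes 1 of 5 rose and none fell, beside 14.4% and 15.5% of all tested that rose and fell. The list median was 0.01, against 0 over all tested microRNAs. Both medians reflect the floor and say little about change. The list median is the floored value of miR-23a, and 16 of the 97 tested lay at or under the floor on all 6 arrays. The 1 that rose was miR-342-3p, from an intron of the Evl gene and common in lymphocytes. It had scaled signals of 15.1 and 14.9 in aged large and 10.3 and 10.6 in young large oocytes. Its log2 change was 0.52 ± 0.03 (SE, adjusted p = 0.00186 by limma). It passed in that direction under 3 of 7 scalings and was negative, at -0.24, without scaling. miR-155, induced in activated lymphocytes and macrophages, had 12.9 ± 0.409 in aged large and 11.2 ± 0.259 in young large oocytes (scaled signal, SD, n = 2 each), a log2 difference of 0.21 ± 0.08 (SE) that did not pass. miR-23a and miR-21 had log2 differences of 0.01 and -0.03 and did not pass either. The value of miR-23a is set by the floor, which only its reading on aged large array 2 exceeded. Its scaled signals before the floor were 5.77 and 6.26 in aged large, and 3.45 and 3.03 in young large oocytes. The groups did not overlap, so the 0.01 does not show an unchanged level.

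In young large against young small oocytes, 1 of 5 rose and none fell, near the 18.1% and 19.1% of all tested microRNAs that rose and fell. The list median was 0, against 0 over all tested. Again both reflect the floor: the list median is miR-23a, with all its young large and young small readings under the floor. Of the 94 tested, 15 lay at or under the floor on all 6 arrays. The 1 that rose was again miR-342-3p, with scaled signals of 10.3 and 10.6 in young large and 7.17 and 7.52 in young small oocytes. Neither young small array detected it. The fitted difference was 1.42-fold (adjusted p = 0.00396 by limma), and like miR-223 it entered the test only through the large oocyte arrays. miR-155 was detected on all 6 arrays, with 11.2 ± 0.259 in young large and 12.9 ± 1.31 in young small ones (scaled signal, SD, n = 2 each), a log2 difference of -0.20 that did not pass. miR-24 and miR-21, at 0.26 and -0.13, did not pass.

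A further 9 microRNAs are abundant in red cells and their precursors but also in many other tissues, and 6 of them were detected and tested. In aged against young large oocytes 1 of 6 rose and 2 fell, where 15.5% of all tested microRNAs fell, with a list median of -0.11 against 0 over all tested microRNAs. miR-16 and miR-15a had log2 changes of -0.30 ± 0.01 and -0.25 ± 0.05 (SE). Both were negative under all 7 scalings and passed under 5 and 4 of them, in that order. miR-92a had 0.19 ± 0.03 (SE), with a sign that turned under 3 of 7 scalings; miR-93 had -0.15 and did not pass. In young large against young small oocytes 2 of 6 fell and none rose, where 19.1% of all tested fell, with a list median of -0.08 against 0 over all tested. Of the 2, miR-93 and miR-92a had log2 changes of -0.69 ± 0.05 and -0.38 ± 0.03 (SE). These turned positive under 1 and 2 of 7 scalings. miR-15b and miR-16 had 0.28 and -0.04 and did not pass. The 6 detected here stand beside undetected miR-144, miR-451 and miR-486. Whether the pools held red cell RNA was not tested.

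By pattern, the microRNAs nearest to miR-223 came from the early-embryo cluster. Likeness was the root mean square difference of log2 scaled signals, floored at 6.17, over the 6 arrays, each microRNA centred on its own mean. On young small array 2 the values of miR-223 and miR-291a-3p were at that floor. Among 74 candidates, whose median distance was 1.24 log2 units, the nearest was miR-292-3p at 0.42. miR-294, miR-652, miR-295 and miR-291a-3p followed at 0.66, 0.70, 0.71 and 0.73, so that all but miR-652 of the 5 belonged to that cluster, which runs from miR-290 to miR-295.

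Chosen by likeness to miR-223 over these same arrays, all 5 shared its low small oocyte values, which is thus no separate result. None of the 5 passed in the ageing comparison. miR-292-3p had scaled signals of 50.1 and 50.0 in aged large, 38.4 and 41.5 in young large, and 10.7 and 13.0 in young small oocytes. Its aged and young large values differed by a log2 of 0.33 ± 0.12 (SE), which did not pass (limma, adjusted p = 0.126). miR-295 and miR-291a-3p had their highest values in young large oocytes, with aged over young large log2 differences of -0.36 and -0.30 that did not pass. Whether the rise of miR-223 in aged oocytes differs from these changes was not tested.

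**Figure D4:**
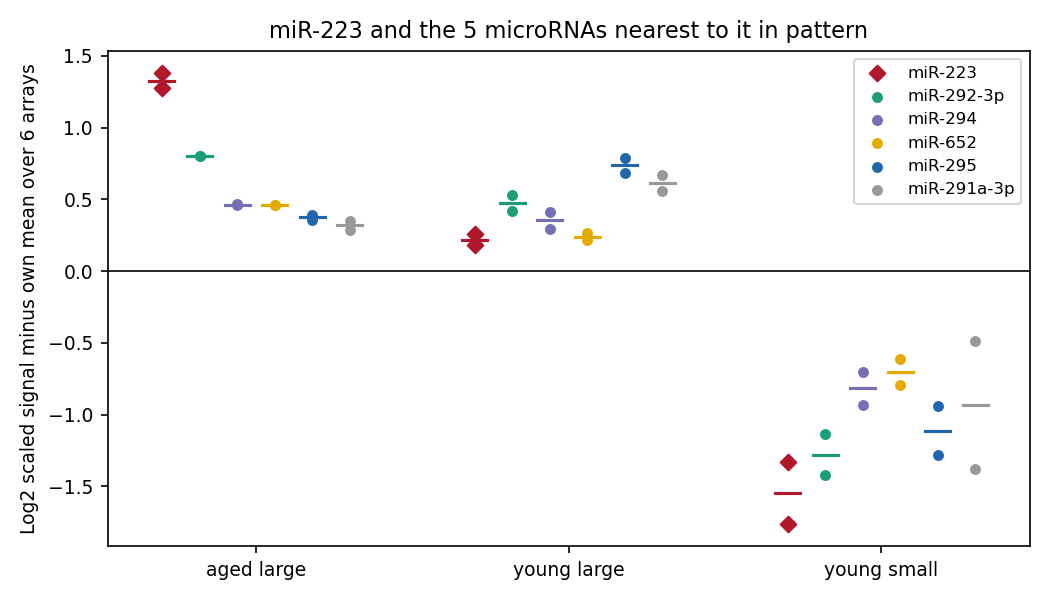
Log2 scaled signal minus each microRNA's own mean over the 6 arrays (y), by group (x), for miR-223 (diamonds) and the 5 microRNAs nearest to it in pattern (circles); each point is 1 array and each short line a group mean. All 6 microRNAs are lowest in young small oocytes, and miR-223 has the widest gap between aged and young large oocytes of those drawn.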

How the data were processed

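MicroRNA abundance was measured on 6 one-colour arrays annotated against miRBase 10.1, per the labels. Signals were extracted from the images by Agilent Feature Extraction 9.5 (named in the submitters' processing notes). Scanner files as deposited hold linear intensities and their errors, not normalized between arrays; the deposited inlier value is a fraction of spots. The deposited series table holds the same intensities but puts 0 for any value under 10 (with a tolerance of 1%, 0 of 577 entries departed from this). The files name no genome build.

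The 577 microRNA entries were used and 23 others left out. Signals were divided by each array's 75th percentile over the 56 entries detected on all arrays, floored at 6.17 and put on the log2 scale. An entry was tested where both arrays of a compared group detected it. A model with 1 mean for each group was fitted over all 6 arrays in limma 3.58.1 (lmFit, eBayes; R 4.3.3), two-sided, with Benjamini-Hochberg adjustment over all tested entries, a threshold of 0.05 and 3 residual degrees of freedom. The number of arrays limits the precision. Named entries were the 7 members, their opposite arms on the array, the 5 nearest patterns, and up to 4 members of each list by unadjusted p. The members, lists and alternatives were chosen with earlier results of these data known. Alternatives covered scaling, floor, filter, series table, eBayes settings, replicate block, arrays left out and the threshold; a crossed block was added later. The fit was also run on simulated data, with outcomes not given here and not used as support. Figures were drawn with matplotlib 3.10.9. Replicate numbers were not treated as pairs: deviations of same-numbered arrays correlated at 0.20 for ageing and -0.14 for growth over 56 entries.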

Additional observations from a re-analysis of the deposited data

How the results depend on the processing

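The limits are 2 arrays a group, a brightness that differs between groups, and signals near background in small oocytes. The alternatives overlap: for growth, leaving out either aged large array gave the same fit as using only the 4 arrays compared. For miR-223 in ageing, all 23 alternatives gave a positive log2 change and 12 passed. It missed the threshold with the percentile over all entries (0.94), hur control entries (0.72), quantile normalization (1.11), no scaling (0.35), no filter (1.11), the replicate block (1.11; limma, adjusted p = 0.0672) and a threshold of 0.01 (1.11); without 1 array it was 1.05 to 1.16. For miR-223 in growth, 22 of 23 passed, all except no filter (1.76), and the series table, which sets both small readings to 0, gave 0.78. For miR-150* in ageing the call was lost with the percentile over all entries (0.41), hur entries (0.19), the floor divided by 2 (0.58) and a pseudocount of 1 (0.50), and the sign turned without scaling (-0.18). In growth it passed with quantile normalization (0.75), no scaling (1.42) and a pseudocount of 1 (0.51). The cause was not tested.

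The count of microRNAs past the threshold in ageing, 29, became 6 with the percentile over all entries, 58 without scaling, 12 without a filter, 16 with the replicate block and 15 at 0.01; the split of 14 higher to 15 lower became 3 to 3, 3 to 55, 5 to 7, 7 to 9 and 7 to 8 in the same order. The split was 5 to 18 with hur entries, 8 to 24 with the total signal and 13 to 24 with quantile normalization. In growth, 35 became 17 with the percentile over all entries, 23 with hur entries, 84 without scaling, 1 without a filter, 22 with the series table and 23 at 0.01; the split of 17 to 18 became 17 to 0, 21 to 2, 84 to 0, 1 to 0, 18 to 4 and 11 to 12. It was 22 to 14 with the total signal and 28 to 12 with quantile normalization. Leaving out 1 array gave 16 to 30 calls in ageing, 16 without young small array 1 and 19 without young large array 1 or young small array 2, and 13 to 36 in growth, 13 without young small array 1. The labels do not say what the replicate numbers mean; with the block the growth count was 26, and with the young large numbers crossed the counts were 28 and 35. The 6 other members stayed undetected in all 36 readings with a rule of 3 errors.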
